A study of Homo sapiens with 12 samples.

Results

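The AP-2 transcription factor family was followed through 12 RNA-sequencing libraries of T47D, an established estrogen-receptor-positive luminal breast cancer cell line. The 4 genes described are TFAP2A, TFAP2B, TFAP2C and TFAP2E, out of 55882 gene symbols in the table of counts. TFAP2B was chosen by its lower counts in HOXB13 cells and TFAP2A by its lower counts with estradiol, in these same libraries, so their values in those comparisons are a description and carry no test. All 4 genes were among the 14799 that passed the filter on low counts. The 4 groups, of 3 libraries each, were HOXB13 cells given estradiol, HOXB13 cells given vehicle, control cells given estradiol and control cells given vehicle. HOXB13 cells express the homeobox factor HOXB13 ectopically, and control cells carry the genotype label WT. Estradiol was given at 2 nM for 24 h, and vehicle was ethanol for the same time. All cells had first spent 72 h in phenol-free DMEM with 10% charcoal-stripped serum, which is low in steroid hormones. The labels do not say whether control cells hold an empty vector, what promoter drives HOXB13 or whether the HOXB13 cells are a single clone. The labels do not name separate cultures either, so each p-value reflects only how far these libraries scatter, and that scatter may be technical.

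AP-2 proteins bind DNA as dimers of the same or of different family members, at GC-rich palindromes, and they act in neural crest, skin, limb, kidney and mammary epithelium. In breast, TFAP2A and TFAP2C are the members best known: TFAP2C takes part in keeping luminal identity and the expression of ESR1, the estrogen receptor gene, and both factors are known regulators of ERBB2. Cofactors of the CITED family bring the acetyltransferases EP300 and CREBBP to AP-2, and KCTD1 and KCTD15 repress its activity.

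The 4 genes are paralogs, and the stretch of coding sequence shown is where they are most alike. It is the gap-free window of 90 bases in their alignment with the most positions identical in all 4. Each line gives 90 bases of the coding strand, from GENCODE release 29 on GRCh38, with capitals at the 60 positions (66.7%) that are identical in all 4 genes.
TFAP2A: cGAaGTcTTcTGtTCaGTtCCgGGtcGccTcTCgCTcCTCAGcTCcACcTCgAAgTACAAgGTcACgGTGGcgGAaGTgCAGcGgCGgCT
TFAP2B: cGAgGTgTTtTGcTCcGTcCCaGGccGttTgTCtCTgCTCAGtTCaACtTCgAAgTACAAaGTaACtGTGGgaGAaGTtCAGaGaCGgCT
TFAP2C: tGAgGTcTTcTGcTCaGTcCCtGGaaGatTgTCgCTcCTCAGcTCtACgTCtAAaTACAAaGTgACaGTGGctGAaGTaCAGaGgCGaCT
TFAP2E: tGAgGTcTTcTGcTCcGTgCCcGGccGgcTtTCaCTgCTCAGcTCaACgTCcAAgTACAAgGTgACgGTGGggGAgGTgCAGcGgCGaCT
The TFAP2A window lies in exon 5 of 8 at chr6:10404559-10404648 on the minus strand. The other windows lie on the plus strand in exon 4 of 7, at chr6:50836140-50836229 for TFAP2B, chr20:56633429-56633518 for TFAP2C and chr1:35588412-35588501 for TFAP2E. Over whole coding sequences, pairwise identity ran between 60.6% for TFAP2C with TFAP2E and 70.2% for TFAP2A with TFAP2B. Over all annotated transcripts of each gene, the longest exact run shared by any pair was 31 bases, between TFAP2A and TFAP2B. The shortest such maximum was 14 bases, between TFAP2A and TFAP2C. Read length is not given in the sources used here, so how many reads could fall on more than 1 member was not tested.

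RefSeq promoters on GRCh38.p14, from 250 bases before to 50 bases after a start, were found for 3 of the 4 members. The promoters of the genes that chose the set, TFAP2A and TFAP2B, are shown in gene orientation, with capitals at each match to GGTCA, the half-site of an estrogen response element, on either strand.
TFAP2A: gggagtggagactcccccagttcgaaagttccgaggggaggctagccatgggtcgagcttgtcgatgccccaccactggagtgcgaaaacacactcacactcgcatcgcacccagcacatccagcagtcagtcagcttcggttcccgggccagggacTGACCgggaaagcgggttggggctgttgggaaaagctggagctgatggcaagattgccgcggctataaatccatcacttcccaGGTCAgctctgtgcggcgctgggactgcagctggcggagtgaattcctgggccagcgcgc
TFAP2B: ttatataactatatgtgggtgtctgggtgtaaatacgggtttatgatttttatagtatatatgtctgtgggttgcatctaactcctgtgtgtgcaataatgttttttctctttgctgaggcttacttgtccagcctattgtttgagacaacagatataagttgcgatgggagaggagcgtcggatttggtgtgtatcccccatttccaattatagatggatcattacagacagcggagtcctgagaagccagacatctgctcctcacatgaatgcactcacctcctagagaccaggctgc
The TFAP2A promoter lies at chr6:10419610-10419909 on the minus strand and the TFAP2B promoter at chr6:50818621-50818920 on the plus strand. TFAP2A held half-sites starting 93 and 10 bases before the start, and TFAP2B held none. A further TFAP2A start, at chr6:10412342-10412641, had no match, and the TFAP2E promoter at chr1:35573064-35573363 had 1. Half-sites were common, standing in 37.4% of 35116 promoters of this length. None of the 4 member promoters held the full element (GGTCA, any 3 bases, TGACC), which stood in 0.057% of promoters, and none held CAATAAA, a HOXB13-type motif, which stood in 4% of them. GCCNNNGGC, an AP-2 motif, was searched on both strands like the others and was in none of the 4 against 23.2% of all promoters. GC content was 61.7% in the TFAP2A promoter and 43% in the TFAP2B promoter.

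Library totals lay between 17679824 and 21385996 counts. HOXB13 had 299 counts over the 3 HOXB13 libraries with estradiol and 326 over the 3 with vehicle, against 0 and 3 counts over the control libraries with estradiol and with vehicle. All 9 luminal markers were expressed, at a summed level of 19000 to 26400 CPM (the count scaled to the library's total) in each library. Other cell types were nearly silent by their defining markers: leukocyte markers summed to at most 0.528 CPM, basal keratinocyte markers to at most 0.732 CPM, and the endothelial marker CDH5 was at 0 in all 12 libraries. Fibroblast markers summed to 53.8 to 65.5 CPM, almost wholly COL1A1, and neural crest and melanocyte markers to 5.18 to 8.72 CPM, and the fat marker ADIPOQ had 0.0521 to 1.46 CPM. In bulk RNA, fewer cells of a type and less RNA per cell cannot be told apart. The libraries numbered 2 stood apart over the genes tested. Between libraries 1 and 3 of a group, the chi-square of the counts per degree of freedom was 6.86 to 14.2. It was 20.5 to 44.9 for pairs that held library 2. Among the AP-2 genes, TFAP2C was lowest in library 2 in 4 of 4 groups, TFAP2B and TFAP2E in 3 and TFAP2A in 2. Library 2 was the highest for TFAP2B and TFAP2E in control cells with vehicle and for TFAP2A in HOXB13 cells with estradiol. Results are therefore also given without the 4 libraries numbered 2, or with the library number as a block, where a call depends on it.

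TFAP2A and TFAP2C were the abundant members and TFAP2B and TFAP2E the rare ones. By average level, TFAP2A stood above 89.5% to 94.6% of the genes tested and TFAP2C above 81.1% to 91.8%, depending on the group. TFAP2B stood above 17.3% to 36.1% and TFAP2E above 13.3% to 17.2%. TFAP2D, the remaining family gene, had 0 counts in all 12 libraries. With each level divided by the length of its merged exons, the mean over HOXB13 libraries with estradiol was 52.3 CPM per kb for TFAP2C, 15.9 for TFAP2A, 0.767 for TFAP2E and 0.281 for TFAP2B. In control libraries with vehicle the means on that scale were 26.5 for TFAP2C, 24.5 for TFAP2A, 1.49 for TFAP2B and 0.518 for TFAP2E. Thus TFAP2B and TFAP2E lay far below the other members in both groups. Their order relative to each other was not the same in them, a description because TFAP2B was chosen by its lower counts in HOXB13 cells.

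**Figure D1:**
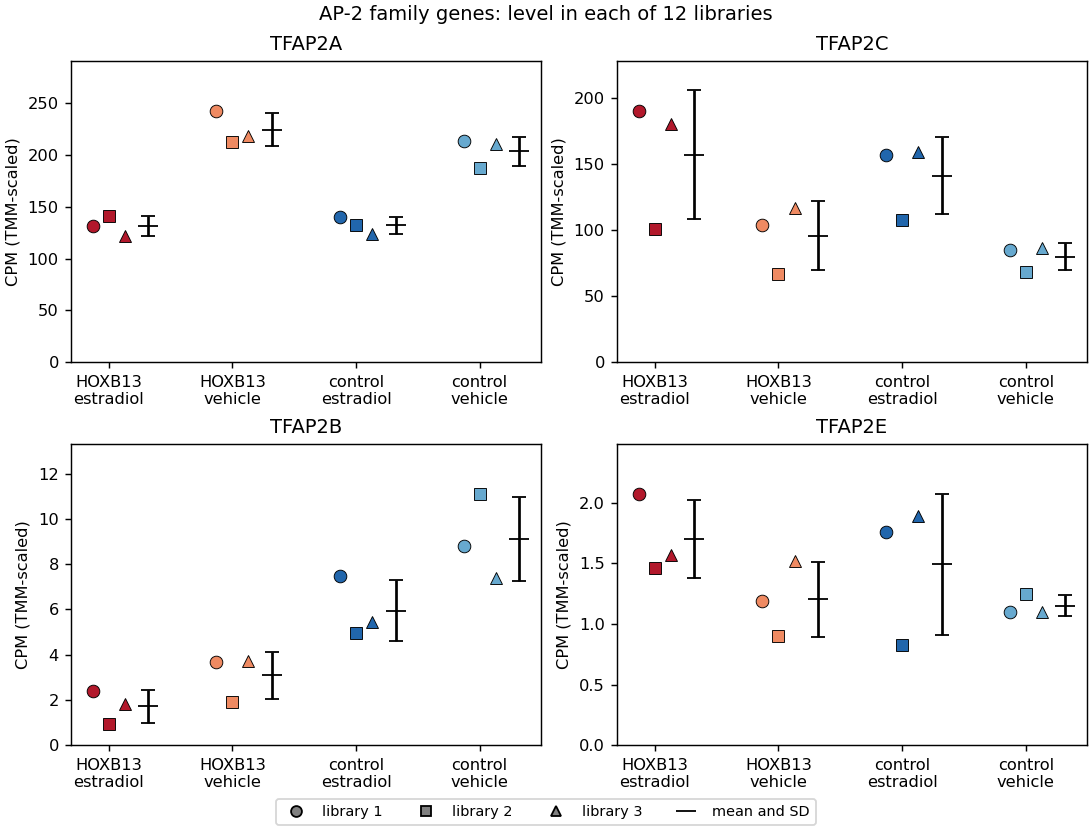
Level of each AP-2 gene in the 12 libraries, in CPM after TMM scaling (vertical axes, starting at 0), by group (horizontal axes), with symbols for library numbers and a bar for the mean and SD of 3 libraries. TFAP2A is lower with estradiol than with vehicle in every library, the TFAP2C means are higher with estradiol, TFAP2B is lowest in HOXB13 cells with estradiol, and library 2 (squares) is the lowest for TFAP2C in all 4 groups.

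TFAP2A, which encodes AP-2 alpha, was lower with estradiol in both genotypes and near equal between the genotypes. In HOXB13 cells it had 131, 141 and 122 CPM with estradiol, against 242, 212 and 218 CPM with vehicle. In control cells it had 140, 132 and 124 CPM with estradiol, against 213, 187 and 210 CPM with vehicle. Every estradiol library thus lay below every vehicle library of either genotype, and estradiol libraries of the 2 genotypes overlapped. The fitted log2 fold change with estradiol was -0.77 ± 0.10 (SE) in HOXB13 cells and -0.62 ± 0.10 in control cells, or 0.588 and 0.649 of the vehicle level, a description because this response chose the gene. Between genotypes, TFAP2A averaged 132 ± 9.62 CPM in HOXB13 cells and 132 ± 7.69 CPM in control cells with estradiol (SD, n = 3 each). With vehicle it averaged 224 ± 15.9 CPM in HOXB13 cells and 203 ± 14.0 CPM in control cells. Neither difference passed edgeR's quasi-likelihood test, with log2 fold changes of 0.00 (95% interval -0.21 to 0.21, adjusted p = 0.999) with estradiol and 0.14 (-0.07 to 0.35, adjusted p = 1) with vehicle. Among all genes tested, 0.0135% passed as higher in HOXB13 cells with estradiol and 0.0203% with vehicle. The antisense gene TFAP2A-AS1 had 4 to 29 counts per library and passed in no comparison, beside 2256 to 4871 counts for TFAP2A. Whether counting used strand is not given in the sources used here, so reads of this pair cannot be told apart.

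TFAP2C, which encodes AP-2 gamma, was higher with estradiol in control cells. In HOXB13 cells it had 190, 101 and 180 CPM with estradiol, against 104, 66.7 and 117 CPM with vehicle. In control cells it had 157, 108 and 159 CPM with estradiol, against 84.9, 68.0 and 86.6 CPM with vehicle. In control cells the lowest estradiol library, number 2, stood above the highest vehicle library. In HOXB13 cells the groups overlapped: library 2 with estradiol lay below libraries 1 and 3 with vehicle and above its own number with vehicle. In control cells TFAP2C rose 1.77-fold with estradiol (log2 fold change 0.82 ± 0.24, 95% interval 0.30 to 1.34, edgeR adjusted p = 0.0334). In HOXB13 cells the difference was 1.64-fold (0.71 ± 0.24, 0.19 to 1.23), with adjusted p = 0.0679. Among all genes tested, 8.65% passed as higher with estradiol in control cells and 7.22% in HOXB13 cells, so that passing was not rare. With the library number as a block, TFAP2C passed in HOXB13 cells (0.70, adjusted p = 1.16e-06) and in control cells (0.81, adjusted p = 1.23e-07), where 15.5% and 17.5% of all genes then passed as higher. Without the 4 libraries numbered 2 it also passed in HOXB13 cells (0.75, adjusted p = 4.15e-06) and in control cells (0.88, adjusted p = 3.34e-07). The call in control cells was lost when any of 5 single libraries was left out. These were control libraries 1 and 3 with estradiol (adjusted p = 0.0954 and 0.12) and control libraries 1, 2 and 3 with vehicle (0.0778, 0.0715 and 0.0674), with log2 fold changes between 0.72 and 0.88. Over 19 alternatives the adjusted p of TFAP2C lay between 1.16e-06 and 0.245 in HOXB13 cells and between 2.76e-08 and 0.12 in control cells, and the log2 fold change was above 0 in each.

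Between genotypes TFAP2C did not pass. With estradiol it averaged 157 ± 49.2 CPM in HOXB13 cells and 141 ± 28.9 CPM in control cells (SD, n = 3 each), a log2 fold change of 0.15 with a 95% interval of -0.36 to 0.67 (edgeR adjusted p = 0.999). With vehicle it averaged 95.9 ± 26.2 CPM in HOXB13 cells and 79.8 ± 10.3 CPM in control cells, a log2 fold change of 0.26 (-0.25 to 0.78, adjusted p = 1). The genotypes overlapped in both treatments.

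TFAP2B, which encodes AP-2 beta, a factor of kidney and neural crest that some breast cancers also express, was lower in HOXB13 cells than in control cells in both treatments. With estradiol it had 2.39, 0.938 and 1.84 CPM in HOXB13 cells, against 7.47, 4.95 and 5.43 CPM in control cells. With vehicle it had 3.67, 1.90 and 3.71 CPM in HOXB13 cells, against 8.82, 11.1 and 7.41 CPM in control cells. Every HOXB13 library lay below every control library. The underlying counts were 18 to 74 per library in HOXB13 cells and 96 to 232 in control cells. The fitted level in HOXB13 cells was 0.290 of that in control cells with estradiol (log2 fold change -1.79 ± 0.33) and 0.340 with vehicle (-1.56 ± 0.31), a description since this contrast chose the gene. Without the libraries numbered 2 these log2 fold changes were -1.60 and -1.13. Genes lower in HOXB13 cells made up 0% of those tested in either treatment (0 of 14799), with 489 genes at an unadjusted p under 0.05 with estradiol and 559 with vehicle, in either direction. Under DESeq2, 9 genes were lower with estradiol and 7 with vehicle, and under limma-voom 2 and 1.

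The estradiol comparison did not choose TFAP2B. In HOXB13 cells it averaged 1.72 ± 0.733 CPM with estradiol and 3.10 ± 1.03 CPM with vehicle (SD, n = 3 each), and the highest estradiol library lay above the lowest vehicle library. The log2 fold change was -0.85 ± 0.34 (95% interval -1.58 to -0.11), which did not pass (edgeR adjusted p = 0.127). In control cells it averaged 5.95 ± 1.34 CPM with estradiol and 9.12 ± 1.87 CPM with vehicle, again with groups that overlapped by 1 library on each side, and -0.62 ± 0.29 (-1.24 to 0.01, adjusted p = 0.187). With the library number as a block, TFAP2B passed as lower in HOXB13 cells (-0.85, adjusted p = 0.0273) and in control cells (-0.66, adjusted p = 0.0318), where 15% and 16.5% of all genes passed as lower, against 6.38% and 6.72% without the block. Without the libraries numbered 2 it passed in HOXB13 cells (-0.79, adjusted p = 0.0469) and not in control cells (-0.33, adjusted p = 0.356). Over 19 alternatives its adjusted p lay between 0.0264 and 0.363 in HOXB13 cells and between 0.0318 and 0.417 in control cells.

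TFAP2E, which encodes AP-2 epsilon, known in mouse from the olfactory bulb, was the rarest member by count in control cells. It had 2.07, 1.46 and 1.57 CPM in HOXB13 cells with estradiol, against 1.19, 0.898 and 1.52 CPM in HOXB13 cells with vehicle. In control cells it had 1.76, 0.826 and 1.89 CPM with estradiol, against 1.10, 1.25 and 1.10 CPM with vehicle. These rest on 16 to 39 counts per library, and the groups of every comparison overlapped. None passed in edgeR's test. The log2 fold change with estradiol was 0.50 (95% interval -0.26 to 1.26, adjusted p = 0.418) in HOXB13 cells and 0.38 (-0.38 to 1.14, adjusted p = 0.539) in control cells. Between HOXB13 and control cells it was 0.18 (-0.56 to 0.93, adjusted p = 0.999) with estradiol and 0.07 (-0.71 to 0.84, adjusted p = 1) with vehicle. Each interval held both 0 and an increase of 0.84 on the log2 scale, so a rise of that size is not excluded.

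**Figure D2:**
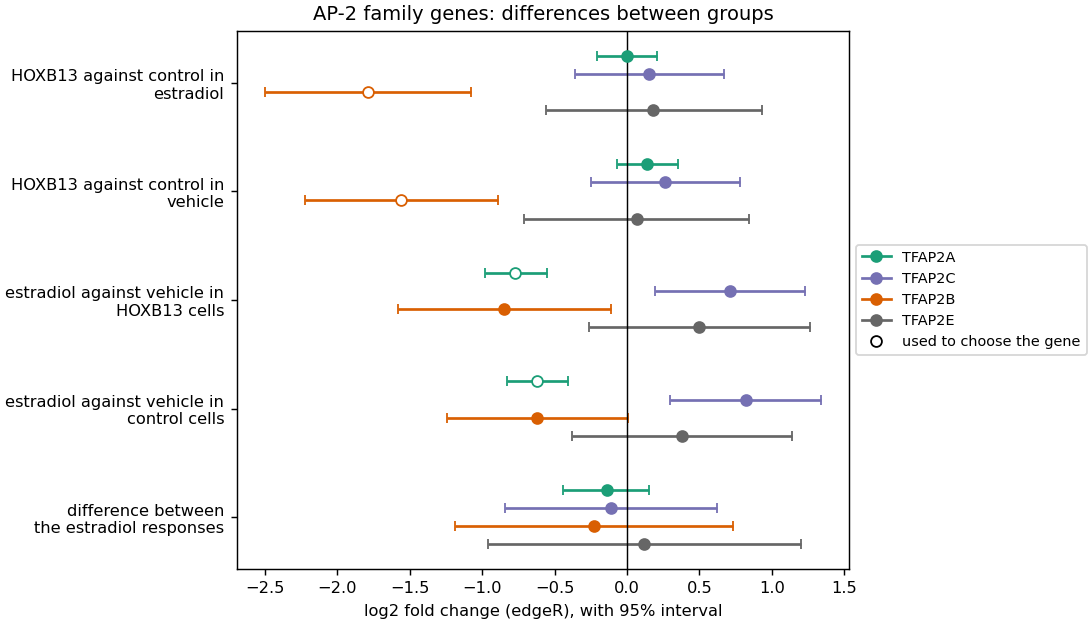
Fitted log2 fold change of each AP-2 gene (horizontal axis) in 5 comparisons (vertical axis), HOXB13 minus control and estradiol minus vehicle. Bars are 95% intervals computed from edgeR's F statistics over 12 libraries. The intervals are not adjusted for the number of genes tested. Open circles mark the comparisons that chose a gene. Among the filled ones, the interval of TFAP2C lies above 0 in both estradiol comparisons. That of TFAP2B lies below 0 for estradiol in HOXB13 cells. In HOXB13 cells neither passed edgeR's test (adjusted p = 0.0679 for TFAP2C and 0.127 for TFAP2B).

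Whether HOXB13 altered the estradiol response was tested as the difference between the response in HOXB13 cells and that in control cells. No AP-2 gene passed: the differences in log2 fold change were -0.14 (95% interval -0.44 to 0.15) for TFAP2A, -0.11 (-0.84 to 0.62) for TFAP2C, -0.23 (-1.19 to 0.73) for TFAP2B and 0.12 (-0.96 to 1.20) for TFAP2E, each with an edgeR adjusted p of 1. Of all genes tested 0% passed here, with 219 at an unadjusted p under 0.05, and DESeq2 and limma-voom also called 0. The interval was narrowest for TFAP2A and widest for TFAP2E, the member with the fewest counts in control cells.

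Because TFAP2A was lower with estradiol and TFAP2C was not, the balance between the abundant members is shown as a ratio within each library, a description because TFAP2A enters it. Per kb of merged exons, the ratio of TFAP2C to TFAP2A was 3.99, 1.96 and 4.06 in HOXB13 cells with estradiol, against 1.18, 0.867 and 1.48 with vehicle. In control cells it was 3.09, 2.26 and 3.52 with estradiol, against 1.10, 1.0 and 1.14 with vehicle. Every estradiol library had a higher ratio than every vehicle library. Per kb of 1 main transcript the ratios were lower, at 0.514 to 1.07 in HOXB13 cells with estradiol and 0.593 to 0.924 in control cells with estradiol, against 0.227 to 0.389 in HOXB13 cells and 0.263 to 0.299 in control cells with vehicle. The gap arises because TFAP2A has 8274 bases of merged exons but 2071 in the main transcript, whereas TFAP2C has 3005 and 2866. Which of these genes is the more abundant under estradiol therefore depends on the length used. Changing the length multiplies the ratio of every library by the same factor. The order of the libraries is therefore the same on both scales by construction, and the second scale is no check of it. The summed CPM of the 4 genes overlapped between all groups, at 292 ± 42.8 in HOXB13 cells with estradiol and 324 ± 37.3 with vehicle, and at 281 ± 31.8 in control cells with estradiol and 293 ± 22.9 with vehicle.

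**Figure D3:**
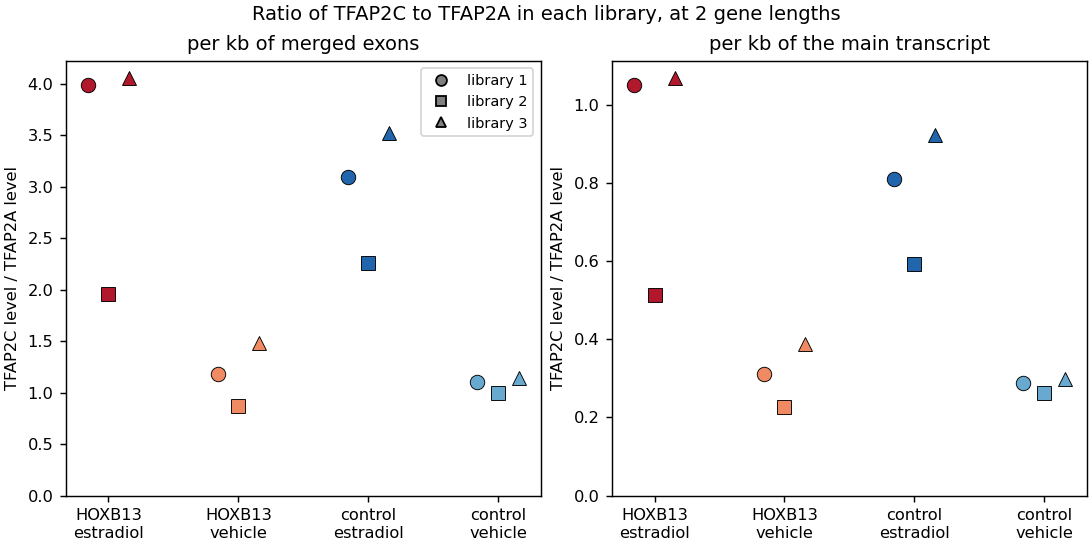
Ratio of the TFAP2C level to the TFAP2A level in each library (vertical axes, starting at 0), per kb of merged exons on the left and per kb of the main transcript on the right, by group, with symbols for library numbers. The 6 estradiol libraries lie above the 6 vehicle libraries, in the same order on both scales by construction because the scales differ by a constant factor. Only on the left do most libraries exceed 1.

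Of the 12 cofactors and partners of AP-2 that were listed, all were tested. The list was chosen with earlier results of these data known, so its counts are a description. With estradiol 1 was higher and 2 were lower in each genotype, with a median log2 fold change of -0.07 in both, against -0.01 over all genes tested, of which 7.22% passed as higher and 6.38% as lower in HOXB13 cells and 8.65% and 6.72% in control cells. A count of 1 higher among 12 is near that share. The member that rose was CITED1, a coactivator: it had 6.11, 3.75 and 2.87 CPM in HOXB13 cells with estradiol, against 1.09, 0.528 and 1.31 CPM with vehicle, a log2 fold change of 2.11 ± 0.37 (edgeR adjusted p = 0.00173). In control cells CITED1 averaged 6.47 ± 1.91 CPM with estradiol and 0.986 ± 0.170 CPM with vehicle, a change of 2.71 ± 0.36 (adjusted p = 0.000184). CITED2, its paralog, moved the other way. It averaged 104 ± 6.10 CPM in HOXB13 cells with estradiol and 233 ± 15.1 CPM with vehicle (-1.16 ± 0.10, adjusted p = 7.02e-06), and 113 ± 8.94 CPM in control cells with estradiol and 244 ± 7.86 CPM with vehicle (-1.11 ± 0.09, adjusted p = 5.01e-06). KDM5B, a histone demethylase reported to bind TFAP2C, also fell, by 0.57 on the log2 scale in HOXB13 cells (adjusted p = 0.00809) and by 0.63 in control cells (adjusted p = 0.00374). For these 3 genes the estradiol and vehicle libraries did not overlap in either genotype. The repressors KCTD1 and KCTD15 did not pass in any comparison. With the library number as a block, 3 partners were higher and 4 lower in HOXB13 cells, and 4 were higher and 4 lower in control cells. The shares of all genes were then 15.5% higher and 15% lower in HOXB13 cells, and 17.5% and 16.5% in control cells. Between HOXB13 and control cells 0 partners passed in either treatment, with medians of 0.00 with estradiol and 0.04 with vehicle. Over all genes, 0.0135% passed as higher and 0% as lower with estradiol, and 0.0203% and 0% with vehicle. With the block 0 partners passed too. The shares of all genes were then 0.142% higher and 0.25% lower with estradiol, and 0.189% and 0.216% with vehicle.

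Of 19 genes reported elsewhere as bound or regulated by an AP-2 factor, listed with no direction assumed, 15 were tested. This list too was chosen with earlier results of these data known. KIT, GPX1, KRT14 and MMP2 were not. With estradiol 1 was higher and 3 were lower in HOXB13 cells, with a median log2 fold change of 0.14, and 3 were higher and 3 lower in control cells, with a median of 0.20, beside -0.01 over all genes tested in both. Over all genes, 7.22% passed as higher and 6.38% as lower in HOXB13 cells, and 8.65% and 6.72% in control cells, so 1 higher among 15 is near the share of all genes. ERBB2, the receptor tyrosine kinase HER2, had 296, 370 and 277 CPM in HOXB13 cells with estradiol, against 705, 772 and 615 CPM with vehicle. In control cells ERBB2 had 320, 332 and 307 CPM with estradiol, against 840, 727 and 697 CPM with vehicle. All estradiol libraries lay below all vehicle libraries, and the log2 fold change was -1.15 ± 0.13 in HOXB13 cells (edgeR adjusted p = 5.68e-05) and -1.24 ± 0.13 in control cells (adjusted p = 2.07e-05). Its dimerisation partner ERBB3 fell by 0.67 on the log2 scale in HOXB13 cells (adjusted p = 0.0016) and by 0.82 in control cells (adjusted p = 0.000279). The epithelial cadherin CDH1 fell by 0.56 in HOXB13 cells (adjusted p = 0.0034) and by 0.44 in control cells (adjusted p = 0.0129).

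RET, a receptor tyrosine kinase, rose in both genotypes. It averaged 7.82 ± 2.12 CPM in HOXB13 cells with estradiol and 3.61 ± 1.25 CPM with vehicle (1.11 ± 0.24, edgeR adjusted p = 0.00691), and 8.53 ± 0.334 CPM in control cells with estradiol and 3.57 ± 0.285 CPM with vehicle (1.25 ± 0.24, adjusted p = 0.00261). The adhesion molecules MCAM and CD44 rose in control cells, by log2 fold changes of 1.15 ± 0.24 (adjusted p = 0.00451) and 0.51 ± 0.13 (adjusted p = 0.0131). In HOXB13 cells the log2 fold change of MCAM was 0.76 (adjusted p = 0.0508) and that of CD44 was 0.38 (adjusted p = 0.0651), and with the library number as a block they passed (adjusted p = 0.00128 and 0.000466). Neither gene's response passed the test of the difference between genotypes (-0.39 for MCAM and -0.13 for CD44, adjusted p = 1). For ESR1 the change was -0.22 in HOXB13 cells (adjusted p = 0.666) and -0.13 in control cells (adjusted p = 0.802). With the block it passed as lower in HOXB13 cells (adjusted p = 0.0278), where 3 targets were then higher and 5 lower, beside 15.5% and 15% of all genes. In control cells 4 targets were then higher and 3 lower, beside 17.5% and 16.5% of all genes. Between HOXB13 and control cells 0 targets passed. Over all genes, 0.0135% passed as higher and 0% as lower with estradiol, and 0.0203% and 0% with vehicle. With the block 1 target passed as lower with estradiol, CDKN1A, a cell cycle inhibitor named here after its values were seen. CDKN1A was at 72.2 ± 4.52 CPM in HOXB13 cells and 96.8 ± 4.73 CPM in control cells (edgeR adjusted p = 0.0149 with the block). In that fit 0.25% of all genes passed as lower.

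**Figure D4:**
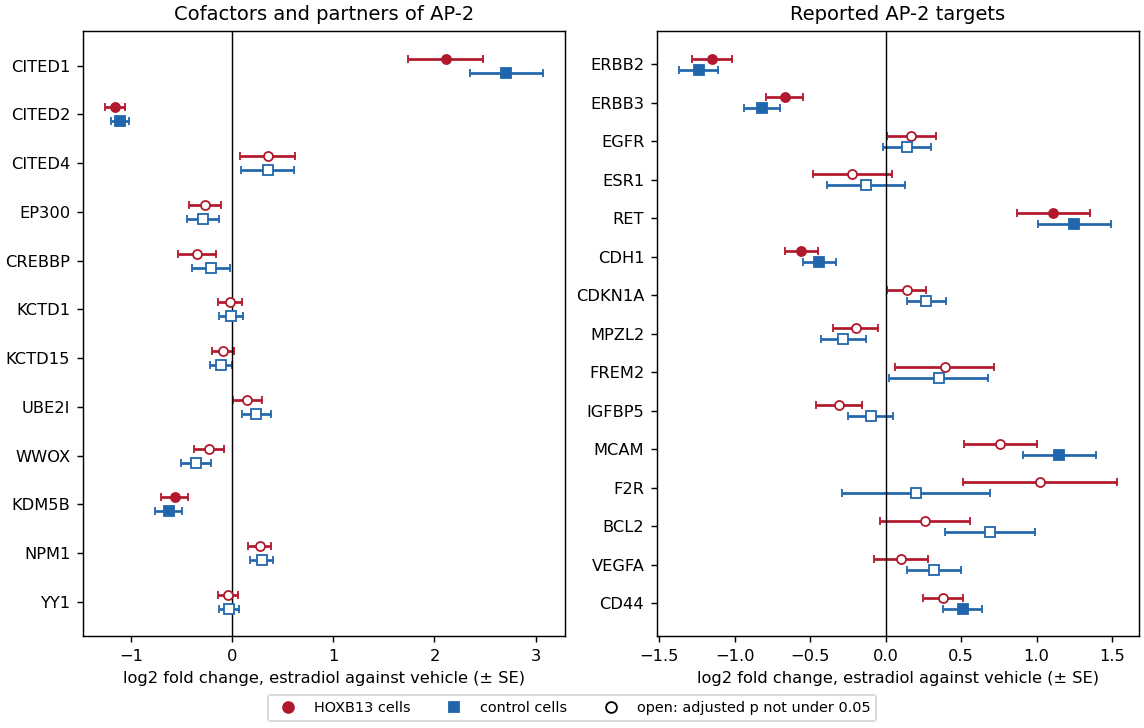
Log2 fold change with estradiol relative to vehicle (horizontal axes, bars are SE) of 12 AP-2 partners on the left and 15 tested AP-2 targets on the right, for HOXB13 cells (red circles) and control cells (blue squares); filled symbols passed edgeR's test. CITED1 stands far to the right of 0 and CITED2, ERBB2, ERBB3, KDM5B and CDH1 to the left in both genotypes.

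The genes whose levels followed each member most closely were ranked by Pearson correlation of log2 CPM over the 12 libraries, a description in which the points share 4 groups and their treatment. Among the genes closest to TFAP2A were the chemokine receptor CXCR4 (0.98) and SIDT2 (0.979), and among those most against it were the splicing factor SRSF3 and the exosome subunit EXOSC2 (each -0.978). TFAP2C ran closest to the zinc transporter SLC39A14 (0.981), the RNA-binding protein HNRNPR (0.978), the matrix protein THBS1 and the kinesin KIF2A (each 0.972) and MLTK (0.971), and most against ROGDI (-0.978). Correlations of TFAP2B were lower, led by the metalloproteinase inhibitor TIMP2 (0.906), STOM (0.875) and the transcription factor IRF1 (0.861), with METTL6 (-0.889) at the other end. TFAP2E ran closest to MPHOSPH9 (0.859) and ORC2, a subunit of the replication origin complex (0.847). After subtracting group means, the correlation with TFAP2C stayed at 0.96 for SLC39A14 and 0.98 for HNRNPR, and that of TFAP2B was 0.19 for TIMP2, 0.66 for STOM, 0.61 for IRF1 and -0.80 for METTL6. Subtracting group means does not remove a shift that libraries of the same number share, and library 2 was lowest for TFAP2C in all 4 groups. Replacing Pearson by Spearman correlation kept 1 of the 5 closest genes for TFAP2A, 1 for TFAP2C, 2 for TFAP2B and 0 for TFAP2E.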

How the data were processed

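The deposited table held raw counts of reads per gene symbol, a column per library. The submitters' processing notes name FastQC, STAR, Picard, HTSeq, GRCh37 and hg19. Per the labels' protocols, RNA was taken with a spin-column kit and sequenced by a service provider. Tool versions, the annotation, the read length and whether strand was used are not stated in these sources. From these counts, low genes were removed with filterByExpr of edgeR, given the groups (at least 10 counts, and 15 in total), scaled by TMM and fitted with 1 mean per group over all 12 libraries by edgeR 4.0.16 (glmQLFit, robust, glmQLFTest) in R 4.3.3. P-values were two-sided and Benjamini-Hochberg adjusted over 14799 genes in each of 5 comparisons, with a threshold of 0.05. CPM use TMM-effective library sizes, log2 CPM a prior count of 2. The fit was tested on simulated counts that held no shift shared by libraries of the same number, so that test does not cover such a shift. The 4 genes, the partner and target lists and the tests were chosen with earlier results of these data known. Genes named were the AP-2 family and its antisense genes, list members that passed in any comparison, the 5 closest and 3 most opposed genes by correlation (at least 1 on the log2 CPM scale), neighbours and controls. Some genes that this rule names are not reported here.

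Deviations from group means correlated between libraries of the same number in different groups. The correlations were 0.123 to 0.311 and 0.125 to 0.409 for the HOXB13 comparisons with estradiol and with vehicle. They were 0.184 to 0.354 and 0.132 to 0.457 for the estradiol comparisons in HOXB13 and control cells. All of these were over the preset 0.1, and in each comparison the highest was that of number 2. For the difference between responses the lowest was 0.0926. The pairing thus comes from the data and not from the labels, and the number as a block is given as an alternative. Other alternatives were relative log expression factors, no filter, DESeq2 1.42.0, limma-voom (limma 3.58.1), fits of the compared groups alone, and leaving out the libraries numbered 2 or each library in turn. Gene lengths and coding sequences came from GENCODE release 29 on GRCh38, not the authors' build, and were matched by symbol. Coding sequences were aligned with MAFFT 7.526. Protein sequences were not used here.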

Additional observations from a re-analysis of the deposited data

How the results depend on the processing

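There were 300 alternative values of the AP-2 genes in comparisons that were tested. Of these, 284 stayed on their side of the threshold, 5 lost a call and 11 gained one. Of values with a call in either fit, 0 changed sign. Values without a call could change sign and still count among the 284. For example, TFAP2E between genotypes ran from -0.1 to 0.39 with estradiol and from -0.13 to 0.3 with vehicle. In the main fit only TFAP2C with estradiol in control cells passed among these comparisons, and all 5 lost calls were its own. Most of the 284 thus belong to comparisons with no call to lose. The 76 values in comparisons that chose TFAP2A or TFAP2B, which carry no test, kept their direction. TFAP2C with estradiol in HOXB13 cells gained its call without a low-count filter (0.72), under DESeq2 (0.71), with the replicate block (0.70) and without the libraries numbered 2 (0.75), and lay between 0.51 and 0.95 when single libraries were left out. In control cells the range over single libraries left out was 0.72 to 0.99. TFAP2B with estradiol in HOXB13 cells gained a call without a filter (-0.84), with the replicate block (-0.85) and without the libraries numbered 2 (-0.79), with a range of -1.16 to -0.55 over single libraries left out, and in control cells with the block (-0.66). The block changed no other call among the tested comparisons of the AP-2 genes, and for the difference between responses it called 0 genes. Counts of genes over the whole table moved more. For HOXB13 against control with estradiol, 16 genes were higher and 14 lower without a filter, 11 and 9 under DESeq2, 21 and 37 with the replicate block, 8 and 13 without the libraries numbered 2, and 2 lower under limma-voom. With vehicle, 37 were higher and 25 lower without a filter, 13 and 7 under DESeq2, 5 and 1 under limma-voom, 28 and 32 with the block, 28 and 9 without the libraries numbered 2, 1 higher in the fit of the compared groups alone and 1 to 6 higher with single libraries left out. For estradiol in HOXB13 cells, 2297 were higher and 2222 lower with the block, 1741 and 1544 without the libraries numbered 2, and 689 to 1205 and 527 to 1027 with single libraries left out. For estradiol in control cells, 2594 were higher and 2438 lower with the block, 1650 lower without the libraries numbered 2 and 587 to 1258 lower with single libraries left out. For the difference between responses, 3 were higher and 1 lower without a filter, and 1 lower without the libraries numbered 2. The cause of these shifts was not tested. TFAP2B and TFAP2E rest on 16 to 232 counts per library, which limits their intervals.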

Other observations

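The protein-coding genes on either side of each AP-2 gene in the RefSeq annotation were read as values. They were SLC35B3 and GCNT2 for TFAP2A, TFAP2D and PKHD1 for TFAP2B, FAM209B and BMP7 for TFAP2C, and NCDN and PSMB2 for TFAP2E. Of these 8 genes 6 were tested, and none passed edgeR's test in any of the 5 comparisons. BMP7, a secreted growth factor beside TFAP2C, had a log2 fold change with estradiol of -1.56 ± 0.53 in control cells (edgeR adjusted p = 0.0627, and 0.0199 with the library number as a block) and of -0.24 ± 0.49 in HOXB13 cells (adjusted p = 0.82). The difference between these responses did not pass (1.33 ± 0.72, adjusted p = 1). BMP7 had 9 to 42 counts per library. PSMB2, a proteasome subunit beside TFAP2E, had a log2 fold change of 0.18 with estradiol in control cells (adjusted p = 0.273, and 0.0489 with the block).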
